A study of Mus musculus with 36 samples.

Results

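The libraries described here are 9 of the 36 in the series. They come from mouse embryonic stem cells (mESCs) kept for 48 h on soft StemBond hydrogels without LIF. StemBond hydrogels are polyacrylamide gels to which extracellular matrix protein, here fibronectin, is covalently tethered. The strain label of all samples was 129m wt, and the labels name no altered gene. Serum medium had 3 libraries, and serum with PD03, an inhibitor of MEK, had 6. The columns of the count table were chosen by their group names, and the comparison was made for all genes that passed a filter on low counts, which were 17702 of 49671. The question was which genes changed when MEK was inhibited on a soft substrate while LIF was absent. Both groups shared serum, substrate and time, but not pool, which here means the SLX number in each sample's description. The 3 serum samples were of pool 3, and of the 6 PD03 samples 4 were of pool 3 and 2 of pool 2. The stiff groups in the same media (3 libraries each) and the soft groups with LIF and with LIF and PD03 (3 libraries each), all at 48 h, were used to see where the response differed.

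In mESCs, fibroblast growth factor 4 (FGF4), which the cells secrete themselves, acts through its receptor, RAS, RAF and the kinase MEK to activate the kinase ERK. ERK activity moves the cells out of naive pluripotency towards the formative state, from which the germ layers arise, and MEK inhibition holds them in the naive state. ERK also induces its own inhibitors. Sprouty and SPRED proteins act on the pathway at the level of RAS and RAF, and dual-specificity phosphatases (DUSPs) remove phosphate from MAP kinases. LIF supports self-renewal through a separate route, the receptor gp130 and the transcription factor STAT3.

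Total counts ranged from 19694142 to 20360811 in serum and from 10405696 to 21120449 with PD03. Library 2 with PD03 was the shallowest and stood apart on the second principal component (6.71% of the variance), at -46.7 against -1.63 to 14.2 for the other 8 libraries. The first component (66.5%) separated the media, with the PD03 libraries between -41.4 and -36.4 and the serum libraries between 75.4 and 78.3. Library 3 with PD03 differed most from the others of its group in its counts. Its chi-square per gene was 8.28 to 12.8 in the 5 pairs that held it, and 2.65 to 5.22 in the other pairs of that group. The library numbers are only names, because the columns carried no replicate number. The embryonic stem cell markers Pou5f1, Sox2, Nanog, Zfp42, Esrrb and Sall4 were high in all 9 libraries. Of the 10 fibroblast markers, Fap had no count in any of the 9 libraries and Lum had 4 counts in all. The summed level of the 8 that passed the filter was 28 to 34.5 CPM (counts scaled to a common library size) in serum and 38 to 50.9 CPM with PD03.

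PD03 changed most of the transcriptome that could be tested. By edgeR's quasi-likelihood test with Benjamini-Hochberg adjustment, 10177 genes (57.5%) passed the threshold of 0.05. With PD03, 5139 genes rose (29% of those tested) and 5038 fell (28.5%). Most changes were small, and 6990 of the genes past the threshold changed by less than 1 on the log2 scale. Changes of at least 1 were seen in 1826 genes upwards (10.3%) and 1361 genes downwards (7.69%), and changes of at least 2 in 601 and 442 genes. The levels of both groups did not overlap in 8681 of the genes past the threshold. This was counted only among genes that passed, where separate groups are likely, so it adds no support to the calls. Without PD03 library 2 the count of genes past the threshold was 10008, and without library 3 it was 10072. The spread between replicates was small (common biological coefficient of variation 0.0598). Nothing says that the libraries came from separate cultures, so the p-values measure the spread between these samples, which may be technical. In the sentences below, rose and fell are used for changes past this threshold, and fold changes are on the log2 scale as serum + PD03 over serum. Counts over a gene list are to be read beside the 29% and 28.5% of all tested genes that rose and fell.

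**Figure D1:**
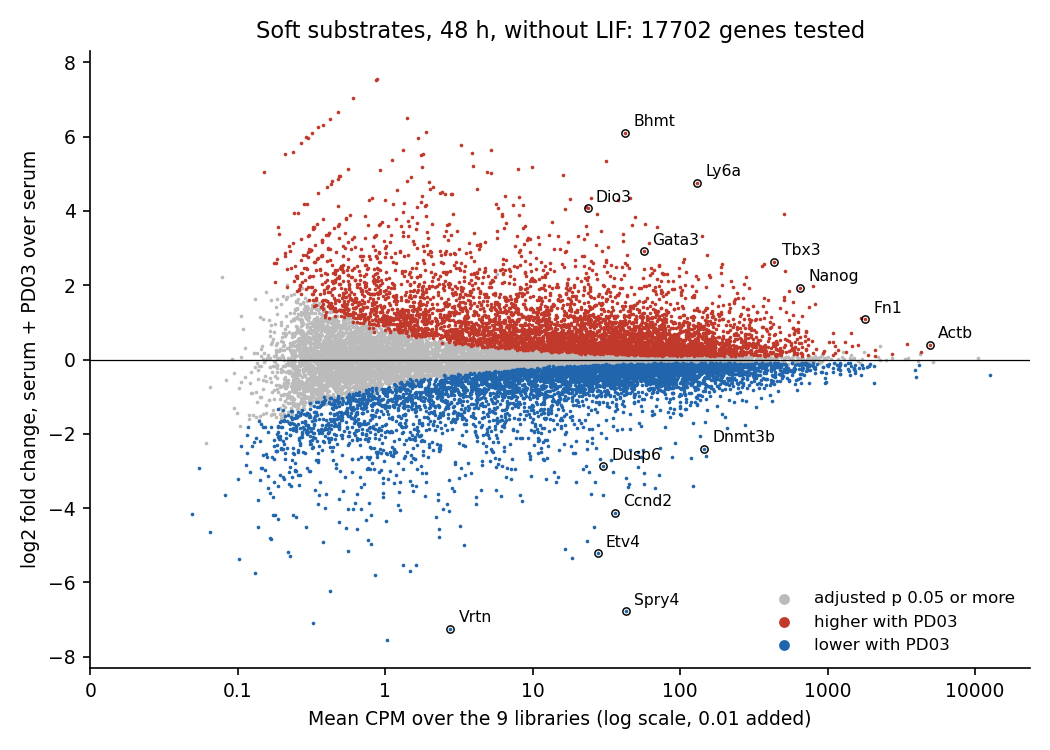
Log2 fold change of each tested gene on soft substrates (serum + PD03 over serum, vertical axis) against its mean CPM over the 9 libraries (log axis), with genes past the threshold in red (5139 higher) and blue (5038 lower). Changes lay on both sides of 0, and Spry4 (-6.77) and Bhmt (6.11) are among the farthest from 0.

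The feedback inhibitors of the pathway fell together. Of 14 genes tested, 11 fell, 1 rose and 2 did not pass, with a median change of -1.35, beside a median of -0.0017 over all genes tested. Spry4 (Sprouty 4, ENSMUSG00000024427) was at 128, 123 and 127 CPM in the 3 serum libraries. With PD03 its lowest, median and highest values were 0.966, 1.19 and 1.36 CPM. It fell by 6.77 ± 0.096 (SE, adjusted p = 1.1e-45), and no value of one group came near the other. Spred1, a SPRED protein that binds neurofibromin, was at 99.1, 112 and 104 CPM in serum and at 9.2, 11.8 and 12.6 CPM (lowest, median and highest) with PD03, and fell by 3.2. Dusp6, a phosphatase specific to ERK, was at 65.6, 72.8 and 75.4 CPM in serum and at 8.96, 9.48 and 10.9 CPM with PD03, a change of -2.87 ± 0.079. The groups were fully separate in both genes.

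The sequence upstream of these genes was examined because they moved together. RefSeq windows (GRCm38.p6, 250 bases before to 50 after a start) were found for 6 of the 11 genes of the feedback and transcription factor lists that fell by at least 1. They were Spry1, Spry2, Spred1, Spred3, Dusp6 and Elk3, whereas Spry4, Etv4, Egr1, Dusp4 and Fosl1 had none. None of the 6 held the ETS motif CCGGAAGT, the AP-1 motifs TGAGTCA or TGACTCA, the cyclic AMP response element TGACGTCA (each on either strand), or the CArG box bound by SRF. In the windows of all 11989 tested genes that had one, the shares were 8.16% for ETS, 4.59% for AP-1, 3.42% for the response element and 1.63% for CArG. Among genes that fell by at least 1 they were 1.71%, 5.14%, 2.28% and 1.26%, and among genes that rose by at least 1 they were 1.55%, 6.84%, 2.25% and 2.56%. With shares this low over all genes, 6 windows without a motif do not show a lack of it. The AP-1 motifs are each other's reverse complement, and a match is a run of letters, not a bound site. The 250 bases before the start of Dusp6 and of Spry2, as a phosphatase and a Sprouty gene that fell, are given 5′ to 3′ on the gene's strand. They hold none of the motifs, so no letter is in capitals.
Dusp6, chr10:99262981-99263230, plus strand: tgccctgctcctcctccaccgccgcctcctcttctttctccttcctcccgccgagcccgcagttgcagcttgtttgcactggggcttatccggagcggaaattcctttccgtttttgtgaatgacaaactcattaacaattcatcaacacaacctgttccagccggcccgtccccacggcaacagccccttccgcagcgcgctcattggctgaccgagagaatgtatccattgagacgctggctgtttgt
Spry2, chr14:105896820-105897069, minus strand: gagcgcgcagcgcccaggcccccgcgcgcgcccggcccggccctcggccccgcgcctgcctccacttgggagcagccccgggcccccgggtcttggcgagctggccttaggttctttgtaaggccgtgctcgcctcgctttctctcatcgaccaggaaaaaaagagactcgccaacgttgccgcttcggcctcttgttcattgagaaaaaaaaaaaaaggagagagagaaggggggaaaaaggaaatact

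The other feedback genes that fell did so by less. Spry2 fell from 78.1 to 21.1 CPM on average, Spry1 from 22.8 to 5.09 CPM, and Dusp4 from 24.1 to 4.28 CPM. Spred2 and Dusp9 fell by 0.94 and 0.77. Dusp9 is the phosphatase of cytoplasmic ERK on the X chromosome. Spred3 fell by 1.77, Dusp5 by 0.94 and Dusp7 by 0.57. Dusp14 went the other way, from 6.36, 7.73 and 6.48 CPM in the serum libraries to 22.2, 24 and 26.2 CPM (lowest, median and highest), a rise of 1.82 ± 0.11. Dusp1, an immediate early phosphatase, was at 26.7, 27.3 and 31.7 CPM in serum and 24.9, 26.2 and 28.2 CPM with PD03, and its groups overlapped (adjusted p = 0.16). Dusp2 was under 1 CPM in both groups on average.

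Among 22 transcription factors that ERK is known to induce or activate, 10 fell, 7 rose and 5 did not pass, with a median of -0.33. The 2 deepest falls were in Etv4 and Egr1. Etv4, an ETS factor of the PEA3 group, was at 73.4, 78.5 and 83.5 CPM in serum and 1.52, 2.13 and 2.62 CPM with PD03, and fell by 5.22 ± 0.1. Egr1, an immediate early zinc finger factor, was at 48.2, 42.6 and 50.3 CPM and 0.968, 1.2 and 2.03 CPM, and fell by 5.09 ± 0.12. Both were under 3 CPM in all 6 PD03 libraries. The other PEA3 factors kept more of their level. Etv1 fell by 0.99, and Etv5 fell from 408 to 271 CPM. Fosl1 fell by 1.88. Jun, Jund, and Ier3 rose by 0.91, 0.74 and 0.94, and Fosl2, Elk1, Elk4 and Srf rose by less than 0.6. Fos, Fosb, Egr2, Egr3 and Egr4 were under 3 CPM in both groups and did not pass.

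**Figure D2:**
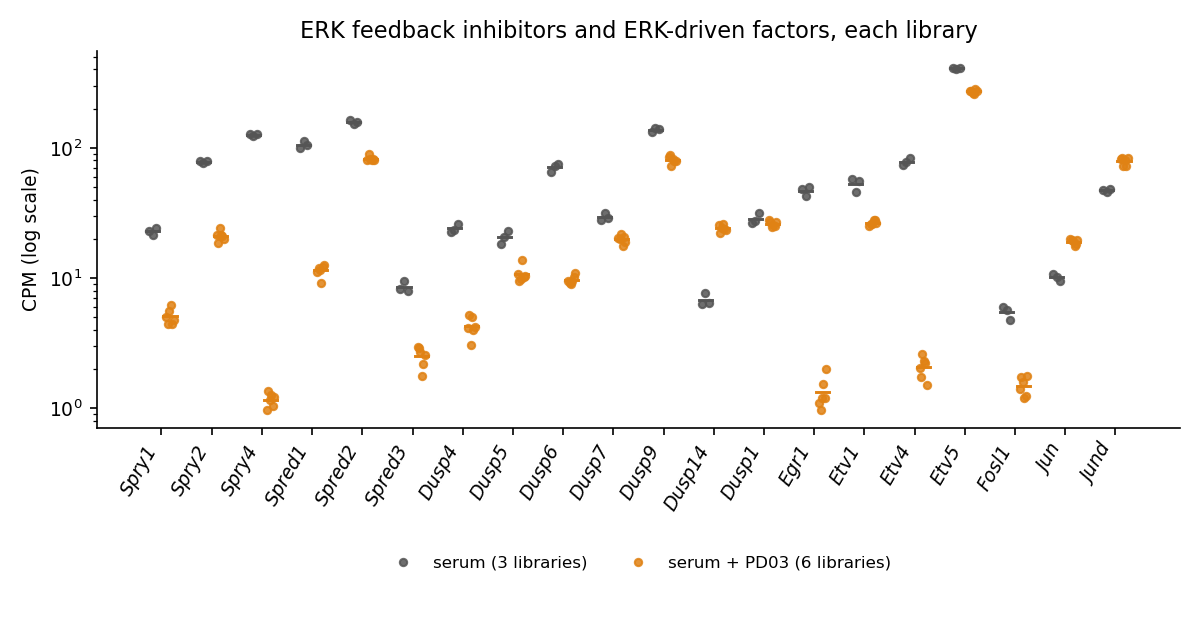
CPM of each library (log axis) for 13 feedback inhibitors and 7 ERK-driven transcription factors on soft substrates, in serum (grey, 3 libraries) and in serum + PD03 (orange, 6 libraries), with bars at the group means. The groups are apart in every gene shown except Dusp1, and Spry4, Etv4 and Egr1 drop farthest.

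The kinases and adaptors of the cascade itself changed less. Of 20 genes from RAS to ERK and its targets RSK, 7 rose, 8 fell and 5 did not pass, and Ksr1 alone changed by at least 1. Thus 35% rose and 40% fell, beside 29% and 28.5% of all genes tested. Ksr1, a scaffold for RAF, MEK and ERK, rose from 23.3 to 51 CPM (by 1.13 ± 0.068). Map2k1, which encodes MEK1, the target of PD03, rose by 0.71, from 65.5, 74.5 and 66.3 CPM to 101, 114 and 122 CPM. Braf and Nras fell by 0.81 and 0.76. Mapk3 (ERK1) fell by 0.49.

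FGF ligands moved in opposite directions. Of 12 listed genes of FGF ligands, receptors and the binding protein Fgfbp1, 7 fell, 3 rose and 2 did not pass. Fgf1, which is not in the list, fell more than any of them and is given below. Fgf4 was at 133, 144 and 138 CPM in serum and 285, 325 and 337 CPM with PD03, and rose by 1.22 ± 0.053. Its receptor Fgfr1 rose by 0.9 and Fgf10 by 2.24, the latter from a low level (2.58 to 12.2 CPM). Other ligands fell. Fgf5, a marker of the post-implantation epiblast, was at 2.57, 2.11 and 2.75 CPM in serum and at 0.101, 0.179 and 0.352 CPM with PD03, and fell by 3.6 ± 0.35. Fgf15 and Fgf17 fell by 2.49 and 2.1. Fgfr2 was at 34.3 CPM in serum and 36.2 CPM with PD03 on average and did not pass.

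Other receptor tyrosine kinases rose more often than they fell (10 rose and 3 fell of 16 tested). Kit, the receptor for stem cell factor, rose by 2.29 ± 0.057, from 40.7, 47.2 and 43.3 CPM to 205, 214 and 219.6 CPM. Erbb3 rose by 1.8 and Epha4 by 1.49. Epha1 fell by 3.19, from 7.68 to 0.852 CPM.

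The genes of general pluripotency divided in 2 directions. Of 8 genes, 4 rose and 4 fell, and none failed to pass. Pou5f1, which encodes OCT4, was at 565, 595 and 583 CPM in serum and 519, 655 and 695 CPM with PD03. Its groups overlapped, and the difference of 0.14 ± 0.059 only just passed (adjusted p = 0.044), a call that was lost under 22 of the 31 alternatives. Sox2 likewise overlapped (0.11 ± 0.038), and its call was lost under 14. Sall4 rose by 0.46 and Foxd3 by 0.6. Utf1, a chromatin factor of undifferentiated cells, was at 511, 517 and 547 CPM in serum and 144, 153 and 165 CPM with PD03, and fell by 1.77 ± 0.044. The RNA-binding protein gene Lin28a fell by 1.08, and L1td1 fell by 0.39.

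Of 19 naive pluripotency genes, 13 rose, 5 fell and 1 did not pass (median 0.63). Tbx3 rose the most. It was at 93.1, 100.1 and 97.9 CPM in serum and 577, 606 and 626 CPM with PD03, a rise of 2.63 ± 0.047 (adjusted p = 4.9e-42). Prdm14, a repressor of FGF receptor and DNA methyltransferase genes, was at 8.29, 8.98 and 9.64 CPM and 46.5, 50.9 and 53.7 CPM, and rose by 2.49 ± 0.095. Nanog was at 214, 235 and 230.4 CPM and 816, 867 and 903 CPM, and rose by 1.94 ± 0.053. In all 3 genes every PD03 library was above every serum library. Dppa3 rose by 1.93, Tfcp2l1 by 1.83, Fbxo15 by 1.21, Klf2 by 1.06, Klf4 by 0.86 and Esrrb by 0.48. Zfp42 (REX1), a classical marker of the naive state, was at 524, 527 and 517 CPM in serum and 473, 564 and 584 CPM with PD03 and did not pass (adjusted p = 0.24), although it passed upwards in 5 alternatives, each of which left out PD03 library 3.

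Gbx2 was the naive gene that fell the most. This factor is a homeobox gene counted among naive genes because it can sustain self-renewal downstream of STAT3. Gbx2 was at 67.3, 65.6 and 65 CPM in serum and 1.84, 2.14 and 2.63 CPM with PD03. It fell by 4.89 ± 0.078 (adjusted p = 1.3e-43). Nr0b1 (DAX1) fell by 1.41, from 141 to 53 CPM, and Klf5 by 0.42. Tdh and Tdgf1 fell by 0.21 and 0.2.

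Formative genes fell, with 2 exceptions. Of 12 genes, 10 fell and 2 rose (median -2.67), and 9 fell by at least 1. Lef1, a WNT-responsive factor, was at 57.1, 45.7 and 56 CPM in serum and 0.748, 1.33 and 1.67 CPM with PD03, and fell by 5.34 ± 0.11. Pou3f1 (OCT6) was at 49.2, 44.7 and 52 CPM and 3.9, 4.93 and 6.18 CPM, and fell by 3.3 ± 0.092. Sox3 and Tcf15 fell by 4.03 and 3.04, and Grhl2, which opens epithelial enhancers in formative cells, by 2.94. Otx2 went against the list. It is the factor that directs OCT4 to formative enhancers, and it rose from 25.5, 20.7 and 25.7 CPM to 42.7, 44.2 and 49.2 CPM, by 0.9 ± 0.079. Zic2 was 0.15 ± 0.059 higher, with overlapping groups, and its call was lost under 11 of the alternatives.

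**Figure D3:**
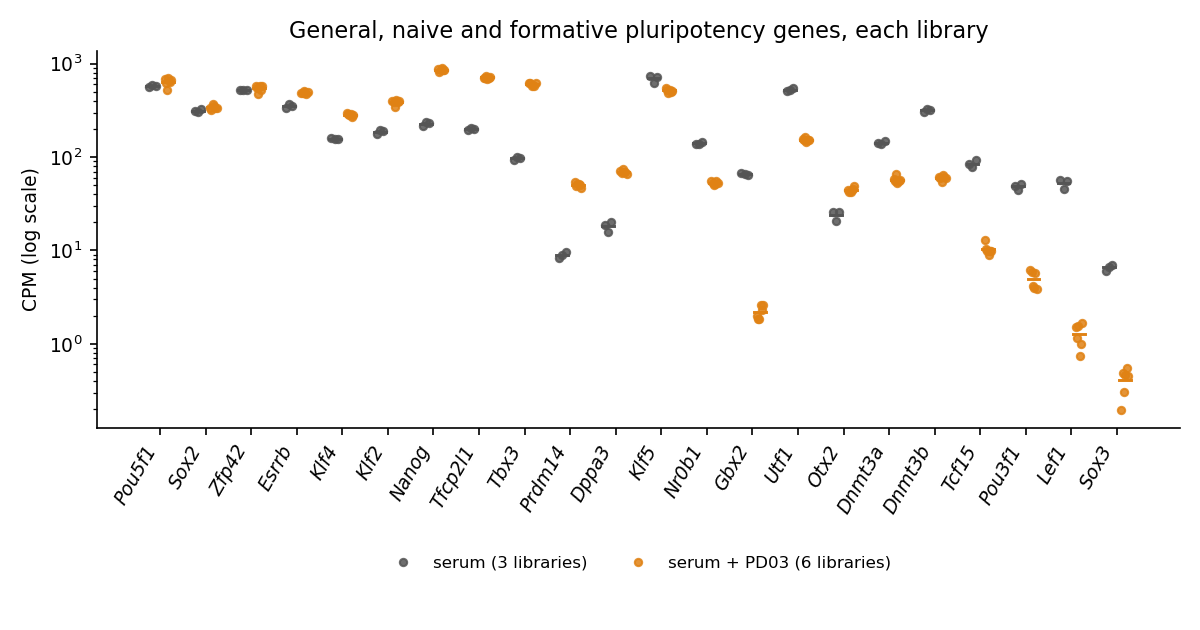
CPM of each library (log axis) for 22 general, naive and formative pluripotency genes on soft substrates, in serum (grey, 3 libraries) and serum + PD03 (orange, 6 libraries), with bars at the group means. Pou5f1, Sox2 and Zfp42 overlap between the groups, Nanog to Dppa3 lie higher with PD03, and Gbx2, Utf1 and the formative genes other than Otx2 lie lower.

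All 12 genes of the trophectoderm list rose (median 1.78). Eomes, which also acts in that layer, was listed with the primitive streak genes and fell by 1.63. Trophectoderm is the outer layer of the blastocyst, which mESCs do not normally form. Gata3, a transcription factor of that layer, was at 10.2, 11 and 10.7 CPM in serum and 77.6, 80.1 and 83.3 CPM with PD03, and rose by 2.92 ± 0.081. The simple epithelial keratins Krt8 and Krt18 rose by 1.84 and 1.98, to 152, 168 and 188 CPM and 147, 161 and 174 CPM (lowest, median and highest). Krt7, Hand1, Tead4 and Tfap2c rose by 2.73, 2.21, 1.72 and 1.27. Cdx2, a defining factor of the layer, was at 2.22, 2.98 and 3.47 CPM in serum and 3.93, 4.89 and 5.65 CPM with PD03. Elf5 was below 1 CPM in all 9 libraries, with overlapping groups. Gcm1 rose by 0.64, also with overlapping groups (adjusted p = 0.037). The summed level of the 12 genes was 182 to 195 CPM in serum and 603 to 672 CPM with PD03. In bulk RNA, a change in the number of cells of a kind and a change of RNA per cell cannot be told apart.

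Primitive endoderm genes had no common direction (6 rose, 6 fell and 6 did not pass of 18). Both shares were 33.3%, near the 29% and 28.5% of all genes tested. Those that rose were Col4a1, Col4a2, Lama1, Lamc1, Sparc and Dab2. Col4a1 and Col4a2, the chains of type IV collagen, rose by 2.52 and 2.57, Sparc by 1.61 and the endocytic adaptor gene Dab2 by 1.65. Those that fell were Gata4, Sox7, Foxa2, Cubn, Amn and Pth1r, with the transcription factor gene Sox7 down by 2.18 and the receptor gene Cubn by 1.38, while Gata6 and Sox17 did not pass. The summed level was 1102 to 1165 CPM in serum and 2467 to 2617 CPM with PD03. Most of that gain lay in 4 genes, as means in serum and with PD03. They were Sparc (214 and 655 CPM), Col4a1 (86.4 and 497 CPM), Col4a2 (45.2 and 268 CPM) and Lamc1 (421 and 675 CPM). The yolk sac genes Ttr and Afp had 0 and 7 counts over the 9 libraries.

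Of 14 primitive streak genes, 5 fell (35.7%, beside 28.5% of all genes tested), 3 rose (21.4%, beside 29%) and 6 did not pass. T (Brachyury) fell by 3.79, from 6.02, 4.71 and 6.93 CPM to 0.0966, 0.395 and 1.16 CPM, and Eomes by 1.63. Gsc rose by 4.1 ± 0.46, to 1.47, 2.26 and 3.45 CPM (lowest, median and highest). Of 9 neurectoderm genes, 4 fell (44.4%, beside 28.5%) and 2 rose (22.2%, beside 29%). Pax6 was at 32.9, 32.8 and 34.6 CPM in serum and 2.99, 4.13 and 4.95 CPM with PD03, and fell by 3.03 ± 0.094. Neurod1 fell by 2.05, whereas Nes, an intermediate filament gene of neural progenitors, rose by 1.39. Sox1 was at about the same level in both groups (10.5 and 10.3 CPM on average) and did not pass.

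The Zscan4 genes, which mark the rare state of mESCs that resembles the 2-cell embryo, fell. Of 7 two-cell-like genes tested, 6 fell and 1 did not pass (median -1.64). Zscan4c was at 2.07, 2.59 and 2.86 CPM in serum and 0.101, 0.418 and 0.978 CPM with PD03, and Zscan4d at 2.17, 2.69 and 1.89 CPM and 0.194, 0.346 and 0.69 CPM. A run of 6 neighbouring tested genes on chromosome 7 (10794242 to 11310682, GRCm38), all of the Zscan4 family, fell by at least 2. The copies are nearly identical, so the share of reads given to each is uncertain.

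The DNA methylation machinery showed falls in the de novo enzymes and not in the maintenance enzymes. Of 14 genes, 6 fell, 3 rose and 5 did not pass. Dnmt3b was at 301, 324 and 322 CPM in serum and 54.3, 60.4 and 63.6 CPM with PD03, and fell by 2.4 ± 0.053. Its cofactor gene Dnmt3l fell by 1.5 and Dnmt3a by 1.3. Dnmt1, the maintenance methyltransferase, was at 382, 381 and 382 CPM and 378, 385 and 440.5 CPM, and its partner Uhrf1 at 357, 378 and 381 CPM and 351, 360.4 and 379 CPM, with overlapping groups and adjusted p-values of 0.31 and 0.49. Of the TET dioxygenases, which oxidise methylcytosine, Tet2 rose by 1.5, from 368 to 1043 CPM, and Tet1 fell by 0.31. Genes of the germline, many of which are silenced by promoter methylation, showed no single direction (11 rose, 7 fell and 5 did not pass of 23, median 0.21). Thus 47.8% rose and 30.4% fell, beside 29% and 28.5% of all genes tested. Dazl rose by 1.32 and Brdt by 1.75, while Ddx4 (VASA) fell by 0.66.

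Neighbouring genes that changed together were sought among all tested genes, as runs of at least 3 in which each rose, or each fell, by at least 2. The longest run was on chromosome 12 (109541001 to 109749460), in the imprinted Dlk1-Dio3 region. All 7 genes of the run fell, and they include the maternally expressed noncoding RNA genes Meg3, Rian and Mirg. Rian was at 203, 209 and 189 CPM in serum and 29, 31.4 and 40.1 CPM with PD03, and fell by 2.63 ± 0.072 (adjusted p = 3.2e-34). Meg3 was at 119.9, 119 and 108 CPM and 16.3, 19.8 and 25.7 CPM, and fell by 2.5 ± 0.15. Mirg fell by 2.71. Rtl1, which is expressed from the paternal copy, fell by 2.82, and Dlk1, another paternal gene upstream, by 1.37. The strand setting of the counting was not stated, and Rtl1 has an antisense transcript, so its reads cannot be assigned to a strand. Dio3 at the other end of the region went up, from 2.42, 1.54 and 2.14 CPM to 31.6, 33.5 and 38.4 CPM, by 4.07 ± 0.14. At the imprinted Igf2-H19 locus both genes rose. H19 was at 29.1, 29.2 and 30.3 CPM and 135, 153 and 159 CPM, and Igf2 at 89.2, 78 and 89.3 CPM and 436, 524 and 560.3 CPM, with rises of 2.35 and 2.57. The groups were separate in each of these genes, and those of the Dlk1-Dio3 and Igf2-H19 regions were named after their values were seen.

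Other runs were in the Hoxc cluster and in the Oas1 family. Hoxc13 and Hoxc12 rose by 2.96 and 4.46, from 1.47 to 11.5 CPM and from 0.18 to 4.1 CPM on average, and their neighbours Hoxc10, Hoxc11 and Hotair rose from near 0 (Hotair had 2, 0 and 0 reads in the serum libraries). Oas1f and Oas1a, of a family of sensors of double-stranded RNA, rose by 5.78 and 2.12, the first from 0.197, 0 and 0.051 CPM to 3.78, 5.07 and 5.89 CPM. Med12l rose by 3.64, from 6.72 to 84 CPM, together with Gpr171, P2ry14 and P2ry13, which lie within it on the other strand, so that their reads cannot be told apart here.

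The STAT3 pathway, the target of the LIF that these media lacked, moved modestly. Of 15 genes, 10 rose, 4 fell and 1 did not pass (median 0.19). Lif itself was at 3.06, 3.03 and 2.96 CPM in serum and 6.79, 8.28 and 9.03 CPM with PD03, and rose by 1.42 ± 0.14. Jak1 and Pim1 rose by 0.52 and 0.59. Stat3 fell by 0.17. Socs3, the feedback inhibitor that STAT3 induces, was at 58.8, 73.2 and 63.9 CPM and 55.4, 59.5 and 61.3 CPM with overlapping groups, and its fall of 0.14 only just passed (adjusted p = 0.046) and was lost under 11 of the 31 alternatives.

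NODAL genes moved in both directions (7 rose, 5 fell and 2 did not pass of 14). Thus 50% rose and 35.7% fell, beside 29% and 28.5% of all genes tested. Pcsk6, a convertase that activates NODAL, rose by 2.33 ± 0.047, from 51.6, 53 and 49.5 CPM to 247, 255 and 269 CPM, and Nodal itself by 0.52. The intracellular mediator gene Smad3 rose by 1.55. Of the secreted inhibitors, Lefty1 fell by 1.37 and Lefty2 rose by 0.59. Skil, which encodes the repressor SnoN, fell by 1.69, from 272 to 83.9 CPM.

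In the BMP pathway the ligand gene Bmp4 and some early targets fell, and the ligand gene Bmp7 rose by 1.35. Bmp4 was at 67.7, 60.1 and 69.5 CPM in serum and 4.89, 6.74 and 8.52 CPM with PD03, and fell by 3.29 ± 0.088. The target genes Id1 and Id3 fell by 2.68 and 2.39, Id2 did not pass, and Id4 rose by 1.72. In all, 7 rose (41.2%, beside 29% of all genes tested), 5 fell (29.4%, beside 28.5%) and 5 did not pass of 17. Of 18 WNT genes, 10 fell, 5 rose and 3 did not pass (median -0.43). Sp5, a direct target of beta-catenin, was at 9.27, 8.93 and 10.5 CPM in serum and 0.0507, 0.291 and 0.484 CPM with PD03, and fell by 5.0 ± 0.22. Axin2, another target, fell by 1.07. Those that rose include the repressor gene Tcf7l1 (1.14) and the secreted inhibitor genes Sfrp1 and Dkk1, up by 2.02 and 2.54. Sfrp1 was at 94.1, 89.1 and 86 CPM in serum and 348, 366 and 376 CPM with PD03.

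Most listed targets of SRF and YAP, which answer to the state of actin and to load on the cell, rose with PD03. The list leaves out some immediate early targets of SRF, such as Egr1 and Fos, which were counted with the ERK-driven factors above. Of these 2, Egr1 fell by 5.09 and Fos did not pass. None of the listed genes tested passed the test of the difference between soft and stiff, described below. On stiff, Acta2, Acta1 and Actb changed by 2.58, 2.42 and 0.32. Of 21 genes tested, 18 rose, 1 fell and 2 did not pass (median 0.75), and 8 rose by at least 1. Acta2, smooth muscle actin, was at 9.92, 8.89 and 7.19 CPM in serum and 50.7, 62.9 and 69.6 CPM with PD03, and rose by 2.81 ± 0.12. Acta1, skeletal muscle actin, was at 2.91, 3.41 and 2.4 CPM and 14.6, 17.3 and 18.5 CPM, and rose by 2.51 ± 0.13. Actb rose by 0.4, from 4041, 4073 and 4071 CPM to 5192, 5399 and 5464 CPM. Myl9, Cnn2 and Tagln rose by 1.58, 1.18 and 1.14, and Vcl and Actg1 by 0.72 and 0.17. The YAP targets Amotl2, Ccn1 (CYR61) and Ccn2 (CTGF) rose by 1.24, 0.82 and 0.75. Ajuba fell by 0.3, and Cnn1 and Flnc did not pass. Actin reads could be shared with processed copies of these genes, so the levels of Actb and Actg1 are uncertain.

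The CArG box was found in the window of 5 of the 17 listed SRF and YAP genes that had one (29.4%), beside 1.63% of all tested genes with a window. This list was searched after its values were seen. Its SRF members were chosen as known targets of the factor that binds the box. A higher share could thus follow from the choice of genes, and it says nothing about PD03. The upstream 250 bases of the 5 genes are given 5′ to 3′ on the gene's strand, with the CArG box in capitals.
Acta1, chr8:123894776-123895025, minus strand: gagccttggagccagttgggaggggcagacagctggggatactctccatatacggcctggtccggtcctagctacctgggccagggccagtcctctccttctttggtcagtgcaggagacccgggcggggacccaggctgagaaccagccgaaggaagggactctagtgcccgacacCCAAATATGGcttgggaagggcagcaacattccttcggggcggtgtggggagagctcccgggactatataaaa
Actg1, chr11:120348496-120348745, minus strand: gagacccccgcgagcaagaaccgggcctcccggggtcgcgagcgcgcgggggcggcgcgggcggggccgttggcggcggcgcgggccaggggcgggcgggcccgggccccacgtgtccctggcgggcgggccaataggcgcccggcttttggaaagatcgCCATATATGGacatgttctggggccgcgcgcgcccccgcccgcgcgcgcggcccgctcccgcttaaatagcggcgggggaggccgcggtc
Cnn2, chr10:79988350-79988599, plus strand: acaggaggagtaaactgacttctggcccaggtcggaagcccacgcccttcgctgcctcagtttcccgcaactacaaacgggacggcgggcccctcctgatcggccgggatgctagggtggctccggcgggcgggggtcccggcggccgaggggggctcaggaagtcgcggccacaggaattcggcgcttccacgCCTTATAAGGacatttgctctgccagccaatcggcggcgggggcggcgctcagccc
Myl9, chr2:156775214-156775463, plus strand: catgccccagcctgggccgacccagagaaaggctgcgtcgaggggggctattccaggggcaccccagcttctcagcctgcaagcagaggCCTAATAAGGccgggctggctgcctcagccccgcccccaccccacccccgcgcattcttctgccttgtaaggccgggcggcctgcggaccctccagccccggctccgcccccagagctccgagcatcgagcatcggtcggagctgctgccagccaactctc
Vcl, chr14:20929148-20929397, plus strand: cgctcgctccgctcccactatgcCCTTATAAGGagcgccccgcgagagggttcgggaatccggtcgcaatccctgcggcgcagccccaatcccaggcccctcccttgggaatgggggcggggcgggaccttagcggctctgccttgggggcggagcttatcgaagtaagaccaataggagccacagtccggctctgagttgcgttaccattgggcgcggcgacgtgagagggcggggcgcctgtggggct
All 5 genes rose, by 2.51, 0.17, 1.18, 1.58 and 0.72 in this order. Of all 21 listed genes tested, with or without a window, 18 rose. Whether the rise went with the box was not tested.

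Basement membrane and matrix genes also rose. Of 23 collagen, laminin and associated genes, 18 rose, 1 fell and 4 did not pass (median 0.82). Fn1, which encodes fibronectin, the protein that also coated the gels, was at 1071, 951 and 1052 CPM in serum and 2076, 2164 and 2306 CPM with PD03, and rose by 1.08 ± 0.041. Col4a1 was at 88.2, 87.7 and 83.4 CPM and 484, 490.2 and 518 CPM, and its head-to-head neighbour Col4a2 at 45.1, 47.9 and 42.7 CPM and 257, 268 and 284 CPM. Nid1, which links laminin to type IV collagen, rose by 2.39, from 135 to 709 CPM, Col12a1 by 2.23 and Lamc1 by 0.68. Col18a1 fell by 0.63. Of the 8 fibroblast markers tested, 4 rose, 2 fell and 2 did not pass. Postn, Col1a1, Col1a2 and Pdgfrb rose, and Thy1 and Dcn fell by 1.88 and 2.44. The part of such cells in the matrix genes was not tested. Matrix proteases and their inhibitors had no common direction (8 rose, 6 fell and 3 did not pass of 17), with Timp3 up by 1.65 and the protease gene Adamts1 down by 2.49.

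Integrin genes were mixed (10 rose, 7 fell and 4 did not pass of 21). Thus 47.6% rose and 33.3% fell, beside 29% and 28.5% of all genes tested. The chains of the vitronectin receptor, which also binds fibronectin, rose. Itgb3 was at 3.11, 3.55 and 4.28 CPM in serum and 16.8, 19.4 and 20.4 CPM with PD03, and rose by 2.39 ± 0.11, and Itgav rose by 1.07. Tln1 (talin), which couples integrins to actin, rose by 1.1. Itgb1 fell by 0.24, and Itga1 by 2.06. Among intermediate filaments and lamins 7 rose, 4 fell and 1 did not pass of 12. Vim (vimentin) fell by 0.68, from 197, 203 and 199 CPM to 123, 124 and 127 CPM, whereas Krt7, Krt8, Krt18, Krt19, Krt42, Des and Nes rose. Krt17, a keratin of stratified epithelia, fell by 2.25.

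Epithelial genes did not move as one (5 rose, 8 fell and 5 did not pass of 18 cadherin and junction genes). Esrp1, which directs epithelial splicing, was at 62.7, 62.2 and 67.2 CPM in serum and 4.61, 5.26 and 5.85 CPM with PD03, and fell by 3.62 ± 0.065. Epcam fell by 1.71. Cdh1, E-cadherin, rose by 0.22, and Cdh2, N-cadherin, fell by 1.28. The mesenchymal regulators Zeb1 and Snai2 rose by 1.22 and 1.48.

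Genes of G1 progression moved in both directions (9 rose, 7 fell and 1 did not pass of 17). Of the D cyclins, which ERK induces in many cells, Ccnd2 was at 98.1, 98.8 and 93.4 CPM in serum and 4.46, 5.52 and 6.59 CPM with PD03, and fell by 4.12 ± 0.072. Ccnd1 fell by 1.13, and Ccnd3 rose by 0.83, from 252 to 448 CPM. Cdk6, a partner of the D cyclins, fell by 2.43. The inhibitor genes Cdkn1b (p27) and Cdkn1a (p21) rose by 1.74 and 1.13, and Ccne1 fell by 0.65. In the MYC network, 5 rose, 3 fell and 3 did not pass of 11. Myc was at 280.4, 244 and 281 CPM in serum and 40.9, 42.6 and 44.6 CPM with PD03, and fell by 2.66 ± 0.053, and Mycn fell by 0.8. Mycl rose by 1.85, from 8.95 to 32.2 CPM. Of 14 apoptosis regulators, 6 fell (42.9%, beside 28.5% of all genes tested), 3 rose (21.4%, beside 29%) and 5 did not pass. Bcl2l11 (BIM), whose protein ERK marks for degradation, fell by 1.29, from 39.4 to 16.1 CPM, the survival gene Mcl1 by 0.5, and Bik rose by 1.84.

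Of 22 genes of glucose uptake and glycolysis, 9 rose, 10 fell and 3 did not pass (median -0.02). Pdk1, which holds pyruvate back from the mitochondrion, was at 134, 148 and 144 CPM in serum and 12.3, 13.9 and 15.5 CPM with PD03, and fell by 3.35 ± 0.059. Hk1 rose by 1.72 and the transporter gene Slc2a3 by 0.84. The lactate dehydrogenase genes moved apart, with Ldha down by 0.63, from 986 to 636 CPM, and Ldhb up by 1.27, from 111 to 266 CPM. Cholesterol genes fell more often than they rose (16 fell, 4 rose and 4 did not pass of 24, median -0.21). Of 20 genes of amino acid stress and serine synthesis, 7 rose, 6 fell and 7 did not pass, with Asns and Cth up by 1.3 and 1.53.

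Bhmt had the largest rise among genes with a mean of at least 5 CPM, 1 predicted gene model left aside. Bhmt (betaine-homocysteine methyltransferase, ENSMUSG00000074768, chromosome 13, 93616675 to 93637961, minus strand, GRCm38) was at 0.74, 1.06 and 0.918 CPM in serum and 56.4, 64.1 and 67.8 CPM with PD03. It rose by 6.11 ± 0.15 (adjusted p = 1.2e-35). Its neighbours on chromosome 13 rose with it. Bhmt2 was at 0.0987, 0.24 and 0.306 CPM and 6.59, 7.28 and 7.98 CPM, and Dmgdh, dimethylglycine dehydrogenase, at 1.09, 1.92 and 1.27 CPM and 22.4, 24.2 and 26.1 CPM. The 3 genes form a run from 93616675 to 93752833. Bhmt and Bhmt2 are close paralogs, so reads could be split between them. Mat2a, which makes the methyl donor S-adenosylmethionine, fell by 0.59, and the fatty acid binding protein genes Fabp3 and Fabp5 rose by 1.71 and 0.86. In that list of lipid binding and methyl donor genes, 7 rose, 3 fell and 1 did not pass of 11.

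Large gene families of general function moved little. Of 83 cytosolic ribosomal protein genes, 29 fell, 7 rose and 47 did not pass (median -0.07), and none changed by 1 or more. Of 78 nuclear genes of the respiratory chain, 22 rose, 14 fell and 42 did not pass (median 0.00). Of 13 respiratory genes of the mitochondrial genome, 2 rose and 11 did not pass, and mt-Co1 rose from 3038, 2687 and 2859 CPM to 3348, 3866 and 4092 CPM (by 0.41 ± 0.15, adjusted p = 0.014), a call lost with DESeq2, with glmTreat and without serum library 2. With 60 clustered histone genes, 20 fell, 6 rose and 34 did not pass (median -0.13), and 6 fell by at least 1. Over the alternatives the number of mitochondrial genes that rose ranged from 0 to 8, and of histone genes that fell from 13 to 27. The share of genes that rose was 24.9% to 34.8% and the share that fell 23.2% to 35.1% over the chromosomes.

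**Figure D4:**
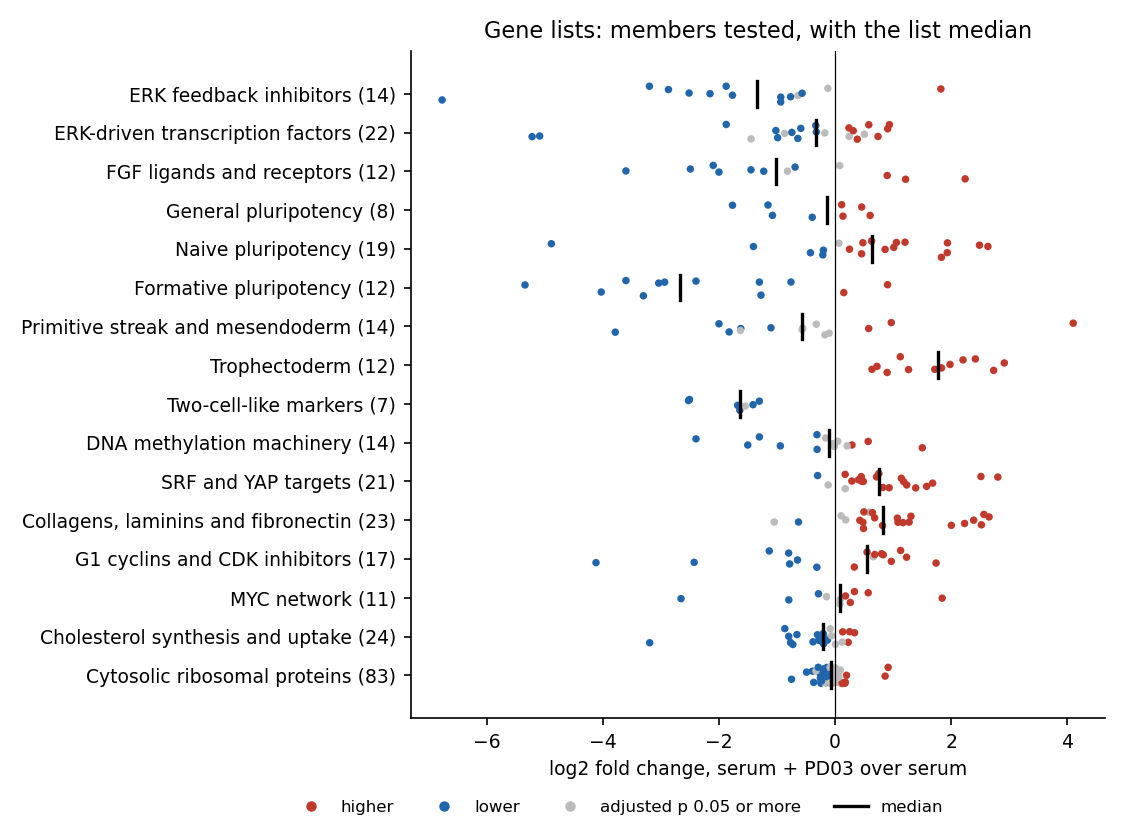
Log2 fold change (serum + PD03 over serum, soft substrates) of each tested member of 16 gene lists, in red where higher, blue where lower and grey where the adjusted p was 0.05 or more, with a black bar at the list median and the number tested in brackets. Feedback inhibitors and formative genes lie mostly to the left (medians -1.35 and -2.67), and trophectoderm, SRF and YAP and matrix genes to the right (1.78, 0.75 and 0.82).

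The other genes with the largest rises, at 5 CPM or more in the higher group and with no overlap, were Adh1, Cd4, Crxos, Klk7, Vnn1, Trim43a, Fbln5 and Ly6a. Ly6a (SCA-1), a surface protein of stem and progenitor cells, was at 7.55, 7.4 and 6.22 CPM in serum and 155, 194 and 212 CPM with PD03, and rose by 4.77 ± 0.11. Crxos, a homeobox gene of mESCs, rose by 5.34, from 0.74, 1.06 and 1.63 CPM to 42.6, 45.1 and 52.9 CPM. Vnn1, a pantetheinase, rose by 5.18 and Trim43a, which has close copies, by 5.13. Adh1, Cd4, Klk7 and Fbln5 rose from below 0.5 CPM to means of 5 to 8 CPM, by 5.63, 5.56, 5.21 and 5.02.

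The largest falls outside those described were in Vrtn, Fgf1, Slc7a7 and Slc23a1. Vrtn, a gene tied to vertebral number, had 179, 169 and 149 reads in the serum libraries and 5 reads over the 6 PD03 libraries, 4 of which had none. Its fitted change of -7.25 ± 0.31 therefore rests on very few reads on the PD03 side. Slc7a7, a transporter of cationic amino acids, was at 73.9, 68.9 and 71.6 CPM in serum and 2.62, 2.84 and 4.43 CPM with PD03, and fell by 4.51. Fgf1 and the vitamin C transporter gene Slc23a1 fell by 4.78 and 4.48.

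In absolute terms the largest gains in mean CPM were in Actb, Fn1, Eif2s2, mt-Co1 and Ckb. Eif2s2, a subunit of the initiation factor eIF2, rose from 947 to 2039.8 CPM, and Ckb, brain creatine kinase, from 269.8 to 1057 CPM. The largest losses were in Gm26917, Ncl, Gm42418, Npm1 and Kpnb1. Ncl (nucleolin) and Npm1 (nucleophosmin) are abundant nucleolar proteins, and fell by 0.46 and 0.29, and the importin gene Kpnb1 fell by 0.42. Gm26917 was at 13444, 16007 and 15991 CPM in serum and 8852, 10280.0 and 15924 CPM with PD03, and its groups overlapped. Gm42418 fell by 0.62.

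The response on the soft substrate was next set beside that on the stiff one, in the same media without LIF. The 2 comparisons share no library. On stiff substrates 9885 genes passed, and 8463 passed in both with the same sign, which is 83.2% of the soft list and 85.6% of the stiff list. Over all tested genes the 2 sets of changes correlated with r = 0.892, as a description across genes, which are not independent. The test of the difference itself called 141 genes (0.797%), of which 72 had a higher and 69 a lower log2 change on soft, and 2024 genes had an unadjusted p under 0.05. Of the 141 genes, 106 moved in the same direction and passed on both substrates, and the change was larger on stiff in 91 of these and larger on soft in 15. Of the 3187 genes changed by at least 1 on soft, 1597 (50.1%) changed more on stiff. These genes were picked by the size of their change on soft, which favours soft. Their share therefore cannot show whether the tilt held more widely. The count of 141 fell to 49 without serum library 2 of the soft group, to 68 without stiff PD03 library 1 or 3, and to between 85 and 91 without stiff serum library 2, stiff PD03 library 2, or serum library 1 or 3 of the soft group. The soft serum libraries came from pool 3 and the stiff ones in both media from pool 2. Of the 6 soft PD03 libraries, 4 came from pool 3 and 2 from pool 2. Pool was thus mixed with substrate and, on soft, in part with medium, and columns could not be tied to pools. The part of pool in this difference and in the soft comparison was not tested.

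Some naive genes differed. Tbx3 rose by 2.63 on soft and by 3.01 on stiff, a difference of -0.38 ± 0.065 (adjusted p = 0.00041). Prdm14 differed by -0.73 ± 0.16, Fbxo15 by -0.46, Klf2 by -0.35 and Tfcp2l1 by -0.27, all rising less on soft. Without stiff serum library 1 the calls of Prdm14, Klf2 and Tfcp2l1 were lost. That of Klf2 was also lost without serum library 2 or 3 of the soft group, and that of Tfcp2l1 in 10 of 21 alternatives. Spry2 and Pou3f1 fell less on soft, with differences of 0.42 ± 0.095 and 0.73 ± 0.16, and both calls were lost without soft serum library 2 or stiff PD03 library 3, that of Spry2 also without stiff PD03 library 2 and that of Pou3f1 without stiff PD03 library 1. Ccnd2 fell more on soft (-4.12 against -3.27). Kit rose less on soft, by a difference of -0.33 that was lost in 10 of 21 alternatives, and Id3 fell more (-2.39 against -1.86). Nes rose more on soft, by 0.46.

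Among the genes with the smallest p-values of this test, the metallothionein genes Mt1 and Mt2, which bind zinc and copper, differed by 0.75 ± 0.085 and 0.75 ± 0.094 (adjusted p = 1.4e-07 and 8.9e-07). Mt1 was at 189, 184 and 200.3 CPM in soft serum and 191, 198 and 217 CPM in soft PD03 libraries and did not pass there, whereas its change on stiff was -0.68. Mt2 rose by 0.35 on soft, and its change on stiff was -0.39. Sh3pxd2a, a podosome scaffold gene, changed by -0.12 on soft and by 0.58 on stiff, a difference of -0.69 ± 0.069. Zfp36l2, Utf1 and Pim2 fell less on soft (by 0.50, 0.48 and 0.57). Fabp3, AU015836 and Bcor rose less on soft, with differences of -0.69, -0.76 and -0.45. Utrn fell by 0.53 on soft and was at -0.10 on stiff, where it did not pass.

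The presence of LIF made little detectable difference to the response on soft. With LIF, PD03 changed 9626 genes, and 8403 of them passed without LIF with the same sign, which is 82.6% of the list without LIF and 87.3% of the list with it (r = 0.886 across genes, no library shared). The test of the difference called 4 genes (0.0226%), and 1301 had an unadjusted p under 0.05. DESeq2 called 16. Vim fell by 0.68 without LIF and changed by -1.14 with it, a difference of 0.45 ± 0.06 (adjusted p = 2.2e-05). Trh, which encodes the precursor of thyrotropin-releasing hormone, was at 114, 104 and 121 CPM in serum and 7.75, 10.9 and 12.7 CPM with PD03. It fell by 3.43 without LIF and changed by -4.31 with it (0.88 ± 0.15, adjusted p = 0.0059). Ctnnal1 fell less without LIF (0.41 ± 0.075), a call lost in 4 of 21 alternatives, and that of Trh was lost without library 1 of the group with LIF and PD03. Hist1h3h fell by 0.27 without and rose by 0.45 with LIF, and its call was lost in 12 of 15 fits that left out a library. Rasgrp2, Mylpf, Eps8l2, Marveld1, Pbxip1 and Mpg, which came next, had adjusted p-values of 0.051 to 0.2. A p that misses the threshold does not show that the effects were equal.

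**Figure D5:**
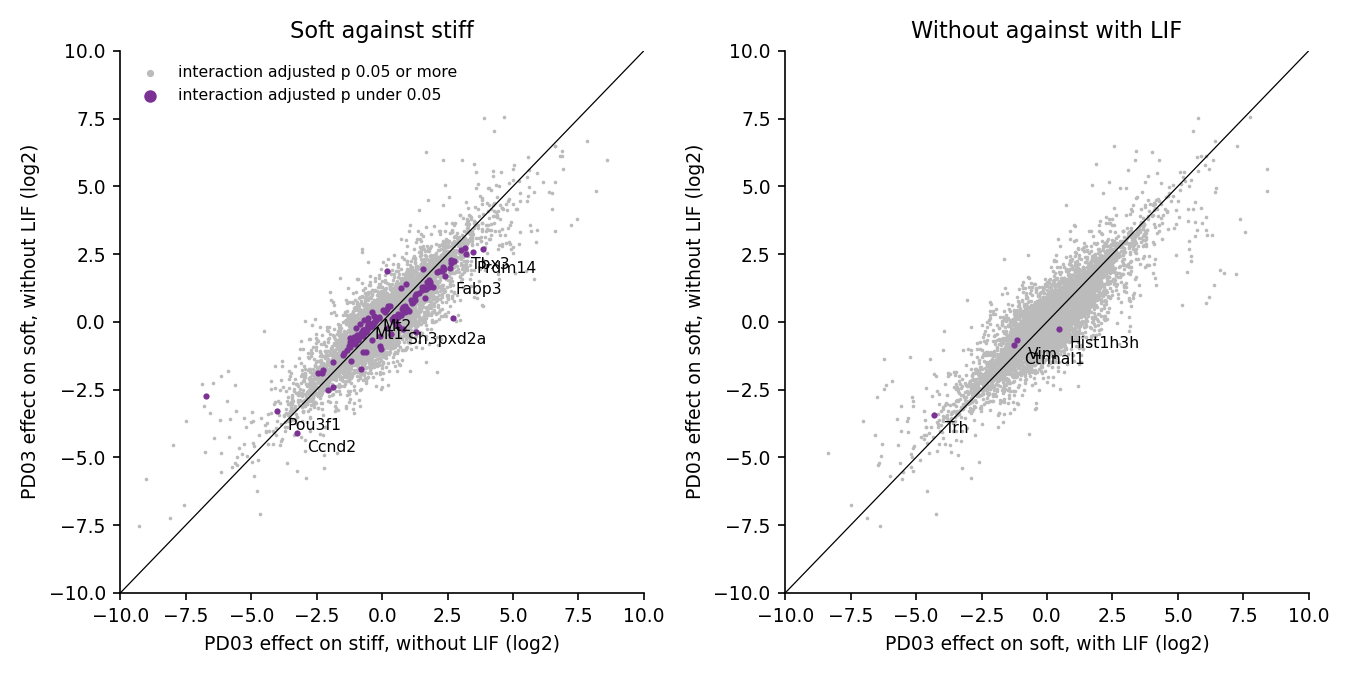
Log2 PD03 effect of each tested gene on soft substrates without LIF (vertical axes) against the effect on stiff substrates without LIF (left) and on soft substrates with LIF (right), with the diagonal of equal effects and, in purple, genes past the threshold of the test of the difference (141 and 4). Points follow the diagonal in both panels, and most purple points on the left lie nearer to 0 on the vertical than on the horizontal axis.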

How the data were processed

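RNA was extracted from cell lysates, and libraries were prepared with a NuGen kit, per the labels. According to the methods and the submitters' processing notes, the authors aligned reads to GRCm38 (mm10) with STAR 2.5.2a and counted them per Ensembl gene with HTSeq. The strand setting and how reads with several matches were treated were not stated. The deposited values are raw counts, made by the authors without normalisation, for 49671 genes in 36 libraries of 11 groups. Of these genes 13380 had no count. Symbols were found for 49326 and positions in GENCODE M21 for 49412. Column names gave the group but no replicate number, so columns were assigned to groups only. The pool identifier of each sample could therefore not be tied to a column.

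The fit used edgeR 4.0.16 (R 4.3.3). filterByExpr by group kept 17702 genes, which hold 99.92% of counts. Libraries were scaled by TMM, and fitted with glmQLFit over all 36 libraries with 1 coefficient per group. Contrasts were tested with glmQLFTest and adjusted by Benjamini-Hochberg over all tested genes (threshold 0.05). The filter keeps genes that are high in 1 group alone. CPM were computed from the counts with TMM-scaled library sizes. Alternatives were other scalings, no filter, DESeq2 1.42.0, the compared groups alone, each library left out, each of the 15 pairs of PD03 libraries left out, and glmTreat with a minimum fold of 1.2. Duplicate libraries were checked with a chi-square per gene over genes with at least 50 counts, and every pair differed beyond sampling noise. On simulated counts of the soft PD03 comparison (17074 genes, 200 changed), the fit recovered 97% with 3.48% false calls. In the data 10177 genes passed the threshold, far more than 200. The share of false calls among these 10177 genes was not tested.

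The comparison, the gene lists and the rules were chosen with earlier results of these data known. Named genes were the 10 per direction with the largest change, a mean of at least 5 CPM, no overlap and no predicted gene model, the 5 per direction with the largest CPM difference, members of the lists (largest change, most reads or opposite direction), and for the differences between effects the 5 per direction with the smallest p. No list was tested as a set. Some listed genes are not reported here. Promoter windows were from RefSeq. Counting error only is covered by depth, since reads are not independent molecules.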

Additional observations from a re-analysis of the deposited data

Results flagged for a closer look

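PD03 library 2 had the lowest total count of its group, 10405696 against 17477396 to 21120449 in the other 5. Of 211 genes described for the soft PD03 comparison, 10 (4.7%) had 1 PD03 library far from the other 5 by Dixon's ratio, about as many as chance flags, which is 1 in 20 groups for the test. Library 3 was the one in 4 of them. It was lowest in Fgf4 (285 CPM, others 319 to 337) and Klf2 (348, others 391 to 413) and highest in Sall4 (1633, others 1397 to 1447) and Dnmt1 (440.5, others 378 to 393). Library 1 was highest in Ajuba (158 CPM, others 140.4 to 146) and Cth (129 CPM, others 119 to 122). Library 2 was highest in Spred2 (89.1 CPM), library 4 in Dusp5 (13.8 CPM) and library 5 in Rian (40.1 CPM), and library 6 was lowest in Actb (5192 CPM).

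Several genes had a PD03 effect on soft substrates that differed from the effect on stiff ones by the test of the difference. As soft minus stiff on the log2 scale, the differences above 0 were Mt1 0.75, Mt2 0.75, Pou3f1 0.73, Pim2 0.57, Zfp36l2 0.50, Utf1 0.48, Nes 0.46, Spry2 0.42, Pim1 0.38, Ccne1 0.28, Ldha 0.27 and Vim 0.25. Those below 0 were Ccnd2 -0.85, AU015836 -0.76, Prdm14 -0.73, Sh3pxd2a -0.69, Fabp3 -0.69, Tfap2c -0.53, Id3 -0.53, Eps8l2 -0.52, Fbxo15 -0.46, Bcor -0.45, Utrn -0.43, Zeb1 -0.41, Tbx3 -0.38, Klf2 -0.35, Kit -0.33, Sfrp1 -0.29 and Tfcp2l1 -0.27. As no LIF minus LIF on soft, the differences were Trh 0.88, Vim 0.45, Ctnnal1 0.41 and Hist1h3h -0.73.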

How the results depend on the processing

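The count of genes changed by PD03 on soft stayed between 9372 and 10072 when 1 library was left out. With glmTreat it was 6653, of which 3064 were lower. The difference between soft and stiff was called in 222 genes without the filter and in 307 with DESeq2, and in 49 to 137 with 1 library left out. That between no LIF and LIF was called in 41 genes without the filter, 16 with DESeq2 and 1 to 8 with 1 library left out. Over all genes, 179 recounts were within 1.5 times of those reported and 18 were not. Dnmt1 turned to -0.0026 in the 9-library fit without PD03 libraries 2 and 3, with overlapping groups throughout. The cause was not tested. Upper quartile scaling moved the median change to -0.04, and the share of calls that were higher lay between 46.7% and 54.0%. No paired analysis was possible because the columns carry no replicate numbers. Depth limits the genes under about 1 CPM.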

Other observations

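Protein-coding genes passed the soft PD03 test more often than other classes. Of 14617 protein-coding genes tested, 32.9% rose and 31.5% fell. Of 458 lincRNA genes, 15.1% rose and 23.4% fell, and of 239 processed transcripts 10.5% rose and 26.8% fell. The classes also differ in depth, and its part was not tested.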
